A study of Homo sapiens with 2 samples.

Results

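The long non-coding RNAs MALAT1, NEAT1, H19, MEG3 and DLEU2 and the snoRNA host RNAs GAS5, SNHG1, SNHG3, SNHG5 and SNHG7 were followed in MEG-01 cells, a megakaryoblastic line from a patient with chronic myeloid leukemia that carries BCR-ABL. One group of cells received the control lentivirus, which expresses Venus, a yellow fluorescent protein. The other group received the GAS2DN lentivirus, which expresses a truncated, dominant negative form of the calpain inhibitor GAS2 together with Venus. In both vectors the spleen focus forming virus promoter drove expression, both groups were sorted for fluorescence and both grew in RPMI1640 with serum, so that the control cells also carried a vector, a promoter and a fluorescent protein. For each condition the RNA of 3 extracts was pooled in equal amounts and hybridised to 1 Affymetrix array, and the time from transduction to RNA extraction was not given in the sources used here. With 1 array per condition there was no spread between replicates and no test, so each value below describes these pools.

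Members were taken by annotation. A probe set, the group of short oligonucleotides that reads one stretch of a transcript, was a member when it was assigned to 1 of the 10 RNAs and to no other gene. This gave 30 of the 41091 single-gene probe sets of the array, with 12 for MALAT1, 10 for MEG3, 7 for DLEU2 and 1 for GAS5. NEAT1, H19, SNHG1, SNHG3, SNHG5 and SNHG7 had no such probe set, because the annotation assigned their probe sets jointly to the small RNAs encoded inside them. A further 23 shared probe sets, over 8 of the 10 RNAs, are therefore described apart from the 30 and by their joint assignment, a choice made after the annotation was seen.

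None of these RNAs is known for a protein product. MALAT1 is kept in nuclear speckles, where splicing factors gather, and NEAT1 is the scaffold of paraspeckles, nuclear bodies that hold back RNA-binding proteins. H19 and MEG3 are imprinted RNAs, expressed from the maternal copy, and DLEU2 is the host transcript of miR-15a and miR-16-1 in the region of chromosome 13 often deleted in chronic lymphocytic leukemia. GAS5 and the SNHG genes carry small nucleolar RNAs in their introns. After splicing, many of the snoRNAs guide the chemical modification of ribosomal RNA. The spliced host is exported, meets ribosomes and is degraded by nonsense-mediated decay. Many of the hosts belong to the 5′ terminal oligopyrimidine class, whose transcripts begin with C and a run of pyrimidines, as those of the ribosomal proteins do.

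The first bases of the 5 snoRNA hosts are shown because this class is defined there. They come from RefSeq (GRCh38.p14) and read 5′ to 3′ from the annotated start, with the unbroken run of C or T at the first base in capitals.
GAS5: agatgtgtttattttggagcctacaccagc
SNHG1: CTCatttttctactgctcgtggtaagtggc
SNHG3: gattctctaactgcgcatgcttctgcgcac
SNHG5: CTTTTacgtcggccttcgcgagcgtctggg
SNHG7: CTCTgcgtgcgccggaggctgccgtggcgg
The windows lie at chr1:173869016-173869045 on the minus strand for GAS5, chr11:62855856-62855885 on the minus strand for SNHG1, chr1:28505943-28505972 on the plus strand for SNHG3, chr6:85678704-85678733 on the minus strand for SNHG5 and chr9:136728155-136728184 on the minus strand for SNHG7. A C followed by at least 4 pyrimidines stood at the annotated start of 1 of the 5 hosts, SNHG5, read on the transcribed strand alone. The same letters stood at 4.07% of the 35116 start sites in the RefSeq table and at 58.6% of the 58 of cytosolic ribosomal protein genes. An annotated start can lie some bases from the one used in these cells, so the other 4 windows say only that the letters are not at that position.

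DLEU2, named for its deletion in lymphocytic leukemia, carries a pair of microRNAs. Their mature 5p forms are shown with the seed, bases 2 to 8, in capitals, because the probe set with the lowest difference among all 53 described here was assigned to MIR15A along with DLEU2.
hsa-miR-15a-5p: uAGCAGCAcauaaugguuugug
hsa-miR-16-5p: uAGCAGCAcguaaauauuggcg
Both lie inside DLEU2 on the minus strand, at chr13:50049167-50049188 and chr13:50049027-50049048, and share the seed AGCAGCA. H19 and MEG3 also enclose microRNAs with seeds of their own, printed here since MIR675 shares the H19 probe sets.
hsa-miR-675-5p: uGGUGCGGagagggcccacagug
hsa-miR-770-5p: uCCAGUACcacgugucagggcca
The first lies at chr11:1996800-1996822 on the minus strand inside H19 and the second at chr14:100852409-100852431 on the plus strand inside MEG3. An array of this kind reads long transcripts and gives no level of a mature microRNA or of a snoRNA.

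The values were MAS5 signals, which subtract the paired mismatch probes and scale each array to one trimmed mean, here 500.1 on both, and are in arbitrary units. Where a pair of signals is given, the Venus array comes first. Median signals over all probe sets were 55.6 (Venus) and 69.1 (GAS2DN). Eligible probe sets were those for which the brighter of the 2 signals reached the median of its array. A spread inside the arrays was read from the standard deviation of the log2 difference, GAS2DN minus Venus, between probe sets of the same gene. These probe sets can read different stretches of a transcript, and a shift that they share cancels out. The spread is thus not the repeatability of an array or a pool. That spread depended on signal, from 0.253 in the brightest of 10 bins of mean signal to 2.43 in the second dimmest, and a difference below is set beside the spread of its own bin. In pooled bulk RNA, fewer cells that make an RNA and less of it per cell cannot be told apart.

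The labelled line was checked first. Of 13 megakaryocyte-erythroid markers with a single-gene probe set 11 were eligible, among them ITGA2B, the platelet integrin alpha chain, at 7149 for Venus and 9238 for GAS2DN, while the platelet granule genes PF4 and PPBP were below the median on both. Summed signals of this list were 46825 and 50107. Over every probe set of the markers of other cells, 3 of 6 genes had an eligible one for fibroblasts, 3 of 5 for HEK293T cells and 2 of 4 for T and B cells. Counted so, the line's own markers were again 11 of 13, and all genes 13342 of 19775. By representative probe set the other cells had 1 of 6, 2 of 5 and 2 of 4, and all genes 13086 of 19775. GAS2 itself was below the median on both arrays, with 24.3 for Venus and 34.7 for GAS2DN, and whether its probe set reads the truncated insert was not given, so it did not check the labels. As a sign of RNA quality, GAPDH had a 3′ to 5′ signal ratio of 1.01 with Venus and 1.02 with GAS2DN, and ACTB had 2.32 with Venus and 2.17 with GAS2DN.

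Over the 30 member probe sets, 17 were eligible, with 8 above and 9 below 0. Of these 17, 2 were over 3-fold higher with GAS2DN, both of MEG3, beside 4.96% of the 24840 eligible single-gene probe sets. No eligible member probe set was over 3-fold lower, beside 3.36%. Among the 17, 12 had both signals at or above the median. None of these 12 differed over 3-fold, where 0.151% of such probe sets were higher and 0.293% lower, and their differences had a median of -0.06 and ran from -1.05 to 0.71. Counted as genes, 1 of the 4 was over 3-fold higher, MEG3, beside 8.36% of 13342 genes with an eligible probe set, and 0 were lower, beside 5.76%. All 13 members that were not eligible lay above 0, and 3 of them were over 3-fold higher. For the 12 that were below the median on both arrays, the background is that 60.7% of such probe sets lay above 0 and 24.4% were over 3-fold higher. A probe set that is eligible through its GAS2DN signal alone has to be higher there, and 3 members were of this kind, 2 of them over 3-fold, against 55% of such probe sets.

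**Figure D1:**
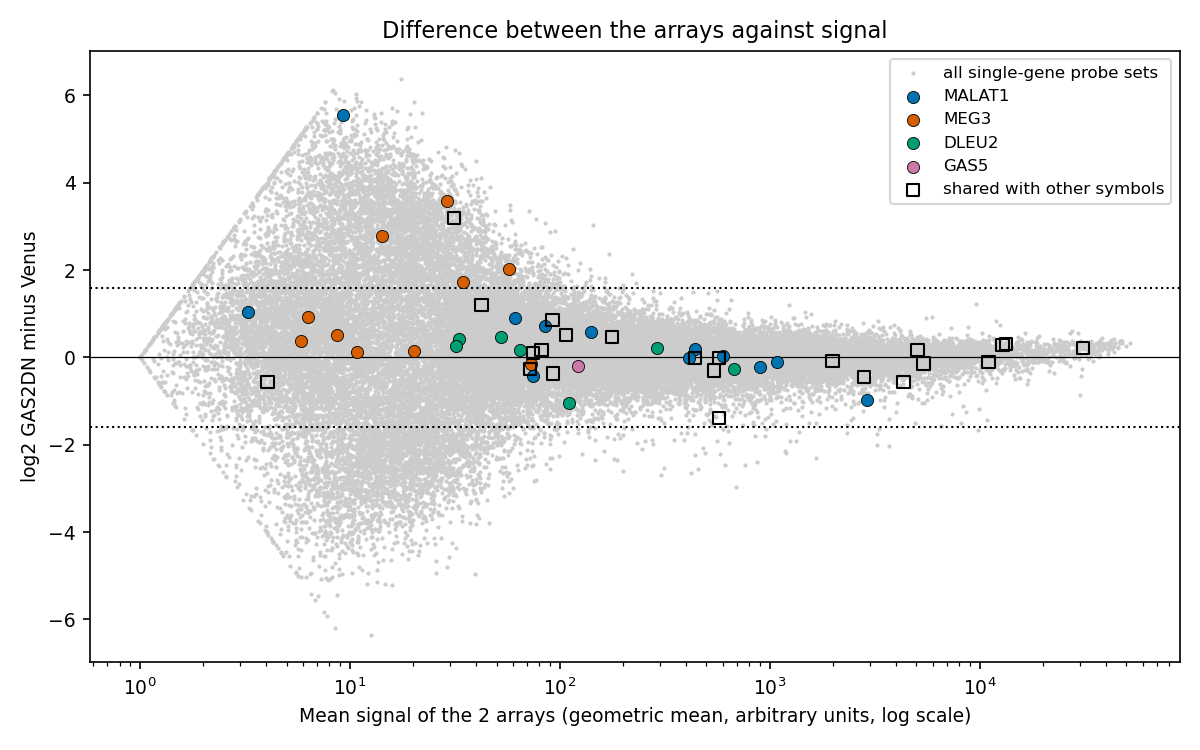
The horizontal axis gives the geometric mean of the 2 signals in arbitrary units on a log scale and the vertical axis the log2 difference, GAS2DN minus Venus, with 1 grey point per single-gene probe set, coloured points for MALAT1, MEG3, DLEU2 and GAS5, open squares for the shared probe sets and dotted lines at 3-fold. The member points above the upper line all lie among the dim probe sets, where the grey cloud is widest, and no member lies below the lower line.

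MALAT1 was read by 12 probe sets, and most of those with firm signal were close to equal on both arrays. The one chosen to represent the gene, 1558678_s_at, which had the highest mean signal after probe sets marked for possible cross-hybridisation (_x_at) were set aside, gave 1130.5 with Venus and 1048 with GAS2DN. Its log2 difference of -0.11 was smaller than the spread of 0.308 in its signal bin. Next to it, 226675_s_at gave 969 and 838, a difference of -0.21, also within 0.308. These 2 probe sets thus placed MALAT1 at nearly the same level in both pools.

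The probe set 224567_x_at stood apart. It read 4074 with Venus and 2068 with GAS2DN, a ratio of 0.508 and a log2 difference of -0.98, beside a spread of 0.253 in the brightest bin. It thus fell just short of 2-fold, and 0.73% of all probe sets of that bin were over 2-fold lower. The value was -0.98 after low signals were raised to the array median and -0.95 after the array median was added to each signal, adjustments that can move a signal this far above the median only a little. No other MALAT1 probe set was lower by as much, and its suffix marks it as one whose probes may also bind other transcripts.

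The other eligible MALAT1 probe sets were level, higher or lower. The signals of 223940_x_at were 588 and 605, those of 224568_x_at 417 and 414, and those of 224558_s_at 411 and 472, with differences of 0.04, -0.01 and 0.20 that lay within the spread of 0.394. Higher values with GAS2DN came from dimmer probe sets, 224559_at with 116 and 172, 223577_x_at with 66.1 and 108, and 227510_x_at with 44.9 and 84, at differences of 0.58, 0.71 and 0.90. Of these, 223577_x_at exceeded the spread of 0.648 in its bin, while 224559_at (0.648) and 227510_x_at (1.021) did not exceed theirs. The probe set 231735_s_at gave 86.2 and 64.2, a difference of -0.42.

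Across the 10 eligible MALAT1 probe sets 5 lay above and 5 below 0, with a median of 0.02 and a standard deviation of 0.56. The direction given for MALAT1 therefore depended on the probe set read, since leaving out all probe sets that end in _s_at or _x_at left 224559_at to represent it, at 0.58 in place of -0.11. The largest difference, 5.54 for 228582_x_at, came from signals of 1.36 and 63.4, which are below the median on both arrays, and it was 0.31 once low signals were raised to the median. The last probe set, 223578_x_at, gave 2.29 and 4.73.

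MEG3, an imprinted RNA of the DLK1-DIO3 region that is known to promote p53 activity and is silenced in many tumours, was near the floor of the arrays in both pools. Its representative probe set 212732_at read 76.7 with Venus and 69.1 with GAS2DN, a difference of -0.15 beside a spread of 1.021. The 2 other eligible probe sets differed from it, for 226211_at read 28.2 and 115 and 229557_at read 8.43 and 100.5. Their differences of 2.03 and 3.58 were the ones over 3-fold among the eligible members, in bins with spreads of 1.021 and 1.666.

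Both were eligible through the GAS2DN array alone, so they had to be higher there, and 55% of such single-gene probe sets were over 3-fold higher. The bin spreads come from probe sets not selected in this way, so they cannot judge these 2. With signals under the array median raised to it the differences were 1.05 and 0.85, and with the array median added to each signal 1.14 and 1.40, all under 3-fold. The gene's value thus hung on the probe set taken, at -0.15 for the one with the highest mean signal and 2.03 for the one next to it. No MEG3 probe set was at or above the median on both arrays.

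The remaining 7 MEG3 probe sets stayed under both array medians and had differences from 0.13 to 2.79. The top 2 of them were 231529_at, with 5.42 and 37.4, and 242246_x_at, with 19 and 63. The other 5 had signals of at most 21.1 on either array. Of all 10 MEG3 probe sets 9 lay above 0 in the deposited values, with a median of 0.72, but 6 of 10 after loess or quantile normalization, with a median of 0.23, because 210794_s_at, 226210_s_at and 235077_at turned negative. Markers of fibroblasts, a cell type known for MEG3, were mostly dim, and their probe sets that were not eligible went both ways. Of the 6 genes 3 had eligible probe sets, 4 in all, and each of the 4 was higher with GAS2DN. Over all eligible single-gene probe sets 54.6% lay above 0. Among the 4, COL1A2 202403_s_at was eligible through its GAS2DN signal alone and so had to be higher, and the rest are marked _x_at. T and B cell markers had 2 of 2 eligible probe sets higher and HEK293T markers 2 of 3. COL1A1, a collagen chain, had 284 and 402 in 217430_x_at, and COL1A2, its partner chain, had 41 and 111 in 202403_s_at. DCN, the matrix proteoglycan decorin, had 58.6 and 131 in 201893_x_at and 56 and 109 in 211813_x_at. Over all 23 fibroblast probe sets 16 lay above and 7 below 0, COL3A1 215077_at was at the lowest signal, 1, on the GAS2DN array, and the summed signals were 844 and 1287. The part of such cells in the MEG3 values was not tested.

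**Figure D2:**
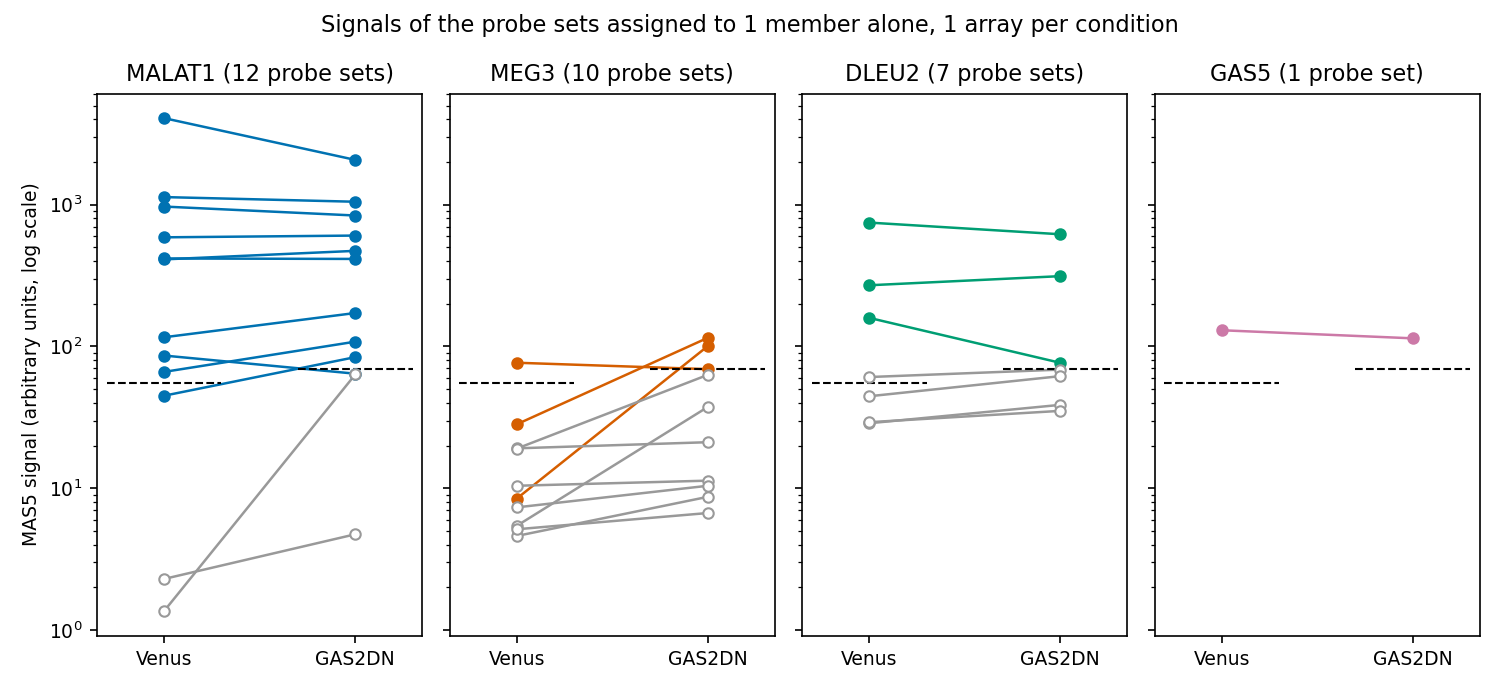
Each line joins the Venus (left) and GAS2DN (right) MAS5 signals of 1 probe set, in arbitrary units on a log scale, with filled coloured points for eligible probe sets, open grey points for the others and dashed lines at the median signal of each array. MALAT1 and DLEU2 had probe sets well above the dashed lines that ran nearly level apart from 1 each that was lower with GAS2DN, whereas the MEG3 probe sets began at 76.7 or less.

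DLEU2, the host of miR-15a and miR-16-1, had 3 eligible probe sets of its own, and they differed among themselves. The probe set that represents the gene, 1556820_a_at, read 159 with Venus and 76.6 with GAS2DN, a ratio of 0.483 and a log2 difference of -1.05, beside a spread of 0.648. It was the only member probe set over 2-fold lower with GAS2DN, beside 6.07% of eligible single-gene probe sets. Under the scalings tried it stayed negative, from -1.25 after quantile normalization to -0.56 with the array median added.

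The 2 brighter DLEU2 probe sets were both marked as open to cross-hybridisation. In 216870_x_at the signals were 747 and 618, a difference of -0.27, and in 1556821_x_at they were 269.9 and 313, a difference of 0.21, both within the spreads of 0.394 and 0.47 of their bins. Taking the median of the 3 in place of 1556820_a_at gave DLEU2 a difference of -0.27. The 4 dim probe sets had signals from 28.7 to 68.6 and differences from 0.17 to 0.47, and 5 of the 7 lay above 0 as deposited but 3 of 7 after loess or quantile normalization.

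A probe set assigned to DLEU2 together with MIR15A and DLEU2L had the lowest difference of all. It was 215629_s_at, with 922 for Venus and 355 for GAS2DN, a ratio of 0.385 and a log2 difference of -1.38, beside a spread of 0.394 in its bin. In that bin 1.9% of single-gene probe sets were over 2-fold lower and 0.438% over 3-fold lower. Adding the array median to each signal gave -1.21, and the sign was negative under every scaling tried. DLEU2L is a pseudogene of DLEU2 at another place in the genome, so this probe set cannot be credited to DLEU2 alone. The other 2 shared DLEU2 probe sets were 239936_at, with 105 and 81.4 (difference -0.37), and 1563229_at, with 71.8 and 76.8 (difference 0.10, which turned negative after loess and quantile normalization).

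Genes known as targets of miR-15a and miR-16 were read beside their host. Of 9 with an eligible representative probe set 5 lay above and 4 below 0, with a median of 0.10, against 56.2% above 0 and a median of 0.056 over 13086 genes. By these probe sets none differed over 2-fold, where 12.4% of those genes did. In them the apoptosis inhibitors BCL2 and MCL1 had signals of 294 and 361, and of 5172 and 6427. The G1 cyclin CCND1 had 359 and 214 and the checkpoint kinase CHEK1 2223 and 1401. Some dimmer eligible probe sets, under the median on 1 array, were over 2-fold apart. BCL2 was higher in 207004_at (19.2 and 156), 203684_s_at (30.1 and 94.7) and 207005_s_at (30.4 and 85.4). CHEK1 was higher in 229423_at (51.8 and 112), and CDK6 lower in 231198_at (93.7 and 10.8). With low signals raised, 207004_at differed by 1.49 and 231198_at by -0.44. The neighbours of DLEU2 on chromosome 13 ran close to equal, with differences of 0.13 for DLEU1, the non-coding gene beside it, 0.12 for the ubiquitin ligase gene TRIM13, -0.12 for SPRYD7, 0.51 for the potassium channel regulator KCNRG and -0.15 for the retinoblastoma gene RB1.

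GAS5, named for its accumulation in growth-arrested cells and known to act as a decoy for the glucocorticoid receptor, had 1 probe set of its own. In 1560402_at the signal was 130.0 with Venus and 114 with GAS2DN, and the difference of -0.19 lay within the spread of 0.648. It was negative under each scaling tried, from -0.36 after quantile normalization to -0.02 with the array median added.

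The 4 probe sets assigned to GAS5 and the 8 snoRNAs in its introns were among the brightest described here, and they split evenly. Those higher with GAS2DN were 224741_x_at, with 11960.1 and 14867, and 224841_x_at, with 11696 and 14163, at differences of 0.31 and 0.28. Those lower were 227517_s_at, with 5304 and 3574, and 228238_at, with 3275 and 2413, at differences of -0.57 and -0.44. The standard deviation over all single-gene probe sets of the brightest bin was 0.275. Each of the 4 exceeded the spread of 0.253 in that bin as deposited and kept its sign under all scalings tried. After loess the higher ones, both marked _x_at, were at 0.24 and 0.21, within that spread. The lower ones, not so marked, were at -0.57 and -0.43 and still exceeded it. These shared probe sets gave the locus no single direction. Which GAS5 transcripts or exons each probe set reads was not analysed here.

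The other snoRNA hosts were read by shared probe sets alone and were close to equal on both arrays. SNHG5, the host of SNORD50A and SNORD50B and the one with the pyrimidine run at its annotated start, had 28891 and 33670.2 in 225155_at, a difference of 0.22 within the spread of 0.253, and it was -0.02 after quantile normalization. SNHG1, whose probe set is shared with 8 snoRNAs of its introns, had 11442 and 10694 in 224610_at, a difference of -0.10. SNHG3, host of SNORA73A, had 605 and 490.4 in 215011_at, a difference of -0.30 beside a spread of 0.394. SNHG7, host of SNORA17A and SNORA17B, had 580.4 and 573 in 1552729_at and 5672 and 5159.7 in 229050_s_at, with differences of -0.02 and -0.14. None of these 5 probe sets exceeded the spread of its bin.

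NEAT1, the paraspeckle scaffold, was read by 9 probe sets that were also assigned to MIR612, a microRNA inside it. The signals of 224565_at were 4776 and 5371, those of 224566_at 2044 and 1937, and those of 225239_at 443 and 437, so that the 3 with the firmest signal differed by 0.17, -0.08 and -0.02 and lay within their spreads. Slightly higher values with GAS2DN came from 234989_at, with 152 and 209, and 214657_s_at, with 89.8 and 128, at 0.46 and 0.51 beside spreads of 0.47 and 0.648. The only one over 3-fold was 227062_at, at 10.4 and 94.8, a ratio of 9.14. It was eligible through the GAS2DN array alone, its difference of 3.19 became 0.77 once low signals were raised to the median, and 4.5% of 1200 eligible probe sets with several genes were over 3-fold higher and 1.75% lower. The other 3 were 238320_at, with 77.2 and 86.7 and a sign that turned after loess and quantile normalization, and 239269_at and 220983_s_at, which were below the median on both arrays.

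H19, an imprinted fetal RNA that serves as the precursor of miR-675, was read by 2 probe sets shared with MIR675, both marked _x_at. They went in opposite directions, with 79.6 and 66 in 224646_x_at (difference -0.27) and 68.4 and 124 in 224997_x_at (difference 0.86). The second exceeded the spread of 0.648 in its bin and the first did not reach its 1.021. Signals this near the array medians gave H19 no clear direction.

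Over all 23 shared probe sets 21 were eligible, 10 above and 11 below 0. Of the 25 other symbols on them, 24 belong to RNAs that lie inside the named host and DLEU2L was the exception. Of the 19 that reached the median on both arrays none was over 3-fold apart, where 0.0975% of 1026 such probe sets with several genes were over 3-fold higher and 0% lower. Their differences ran from -1.38 to 0.86 with a median of -0.02.

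**Figure D3:**
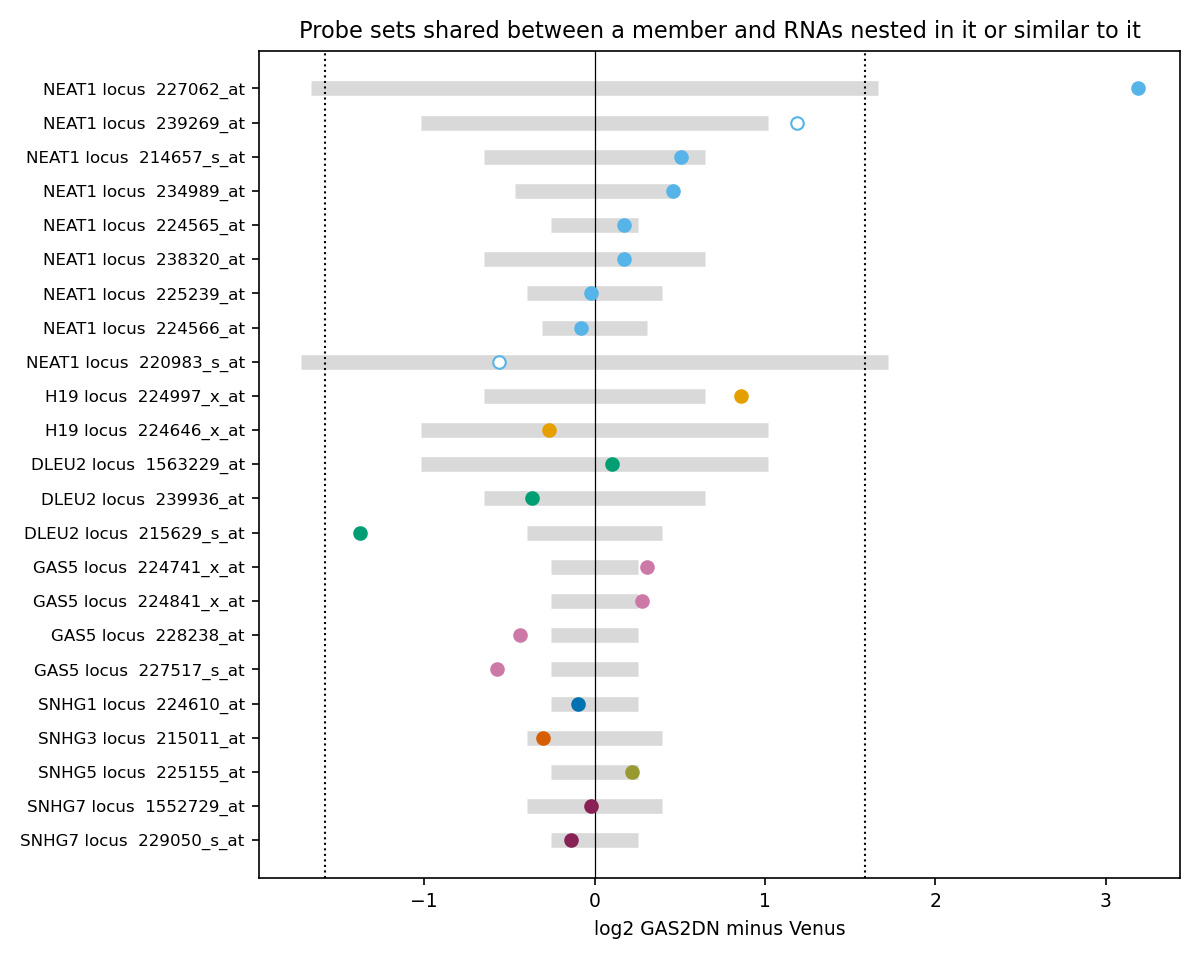
Each point is the log2 difference, GAS2DN minus Venus, of 1 probe set assigned jointly to a member and other symbols, filled where eligible, with a grey bar for plus and minus 1 standard deviation between probe sets of 1 gene at the same signal and dotted lines at 3-fold. The probe set 215629_s_at of the DLEU2 locus lies farthest to the left of its bar, the 4 of the GAS5 locus lie on both sides of 0, and the point farthest to the right, 227062_at of the NEAT1 locus, has a wide bar.

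The proteins and other RNAs that work with these transcripts were read from lists, by the representative probe set of each gene. Among other snoRNA host genes 9 were eligible, 6 above and 3 below 0, with a median of 0.15 and none over 2-fold. The higher ones included ZFAS1, with 11183 and 13382, DANCR, with 10871 and 12085, and EPB41L4A-AS1, with 3385 and 5148. The lower ones were SNHG4, with 368 and 303, SNHG19, with 3658 and 3264, and TAF1D, with 733 and 707. A dimmer eligible probe set of EPB41L4A-AS1, 228259_s_at, was lower, with 413 and 324. By the second-brightest eligible probe set the list median was -0.12. Protein-coding hosts of snoRNAs gave the same count, 6 above and 3 below 0, with a median of 0.11, from NCL, the nucleolar protein nucleolin, at -0.36 to TPT1, the translationally controlled tumour protein, at 0.45.

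Cytosolic ribosomal protein genes, the main members of the terminal oligopyrimidine class, were above 0 for 49 of 55 eligible genes, with a median of 0.24. That median ranged from 0.03 to 0.25 over the settings tried. The median over all genes was 0.056, and the snoRNA hosts named above lay on both sides of it.

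The snoRNA-binding proteins and their assembly factors were close to equal, with 7 of 16 above and 9 below 0 and a median of -0.01. The box C/D proteins FBL, the methyltransferase, and NOP58 differed by 0.06 and -0.01. The box H/ACA proteins NHP2, NOP10 and GAR1 differed by 0.36, 0.50 and -0.15. The assembly factor NUFIP1 was lower in each of its probe sets, at -0.52, -0.47 and -0.60. By representative probe set the only one over 2-fold was NAF1, an assembly factor of box H/ACA particles. It had 5778 and 2805 in 244828_x_at, its sole probe set and one open to cross-hybridisation, a difference of -1.04. SNU13 differed by 0.03 in its representative probe set, but its dimmer 230443_at, also eligible, had 49.8 and 172. Of 8 eligible nonsense-mediated decay factors 6 lay above and 2 below 0, with a median of 0.06. The helicase UPF1 differed by 0.07 and the endonuclease SMG6, a dim one, by -0.68. SMG5 differed by 0.10 in its representative probe set, but its dimmer 212147_at, also eligible, had 154 and 328.

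Paraspeckle proteins, the partners of NEAT1, were below 0 for 11 of 17, with a median of -0.10 and values between -0.43 and 0.20. The core proteins NONO, SFPQ and PSPC1, which bind NEAT1 directly, differed by 0.12, -0.07 and 0.19. Among genes of MALAT1 biogenesis and nuclear speckles 10 of 15 lay below 0, with a median of -0.03. The lowest was RNPS1, a speckle protein of the exon junction complex, with 6643 and 3996 (difference -0.73), and ELAC2, the enzyme RNase Z that trims the MALAT1 3′ end, had 1973 and 1535 (difference -0.36). SRRM2, a scaffold of the speckles, had 1957 and 2677 (difference 0.45). By their eligible representative probe sets, none of the genes in these 2 lists was over 2-fold apart. Some dimmer eligible probe sets were. PSPC1 226724_s_at had 65 and 172 and RBM14 239635_at 77.3 and 213, while EWSR1 210012_s_at had 115 and 41 and SRRM2 1554671_a_at 77.5 and 19.1.

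Neighbours of the member loci were 10 above and 10 below 0, with a median of 0.01. In the DLK1-DIO3 region beside MEG3, the growth regulator DLK1 had 946 and 1147 (difference 0.28) and the deiodinase gene DIO3 45.2 and 96.5 (difference 1.09, and 0.79 with low signals raised). Near H19, the leukocyte actin-binding gene LSP1 had 61 and 11.2, a difference of -2.44 that became 0.18 once low signals were raised, and 2.33% of the 13086 genes were over 3-fold lower. The cell cycle inhibitor CDKN1C and the imprinted antisense RNA KCNQ1OT1 of the same region differed by 0.19 and 1.05, and the ribosomal gene MRPL23 by -0.21. At the MALAT1 and NEAT1 locus FRMD8 differed by -0.50 and LTBP3 by -0.05. Beside the snoRNA hosts the differences were 0.13 for ZBTB37 at GAS5, -0.19 for the amino acid transporter chain SLC3A2 and -0.13 for WDR74 at SNHG1, 0.07 for RCC1 and -0.64 for TRNAU1AP at SNHG3, and -0.05 for SYNCRIP and 0.20 for SNX14 at SNHG5.

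Other long non-coding RNAs had the highest median of these lists, 0.27, with 13 of 17 above 0. One, MIAT, was over 3-fold higher, as were 4.54% of the 13086 genes. It had 26 and 146 in 240607_at, a difference of 2.48 that was 1.39 with low signals raised, while its other 3 probe sets were dim and differed by -0.03, -0.16 and -0.68. HOTTIP, an RNA of the HOXA cluster, gave 32.9 and 87.6 in 1564069_at and differences of -0.01 and -1.47 in its other 2 probe sets. LINC01278 was also over 2-fold higher, with 66.8 and 146. The brighter ones differed little, with -0.02 for NORAD, 0.18 for TUG1 and 0.29 for OIP5-AS1.

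**Figure D4:**
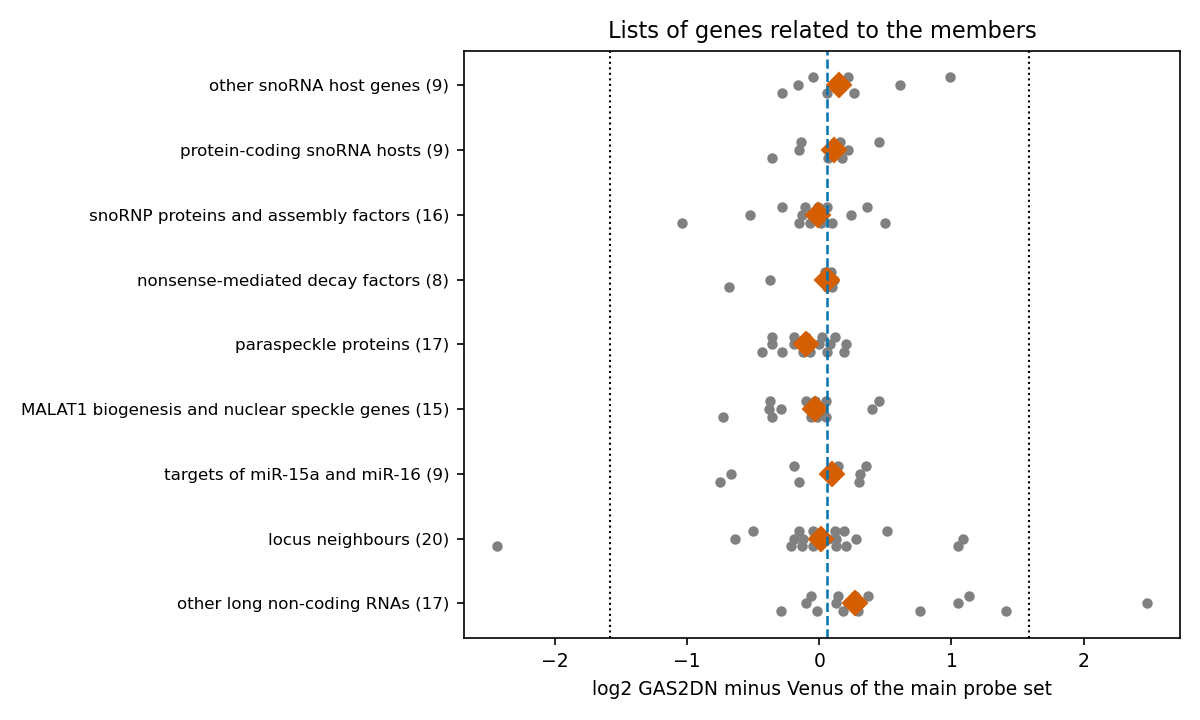
Each grey point is the log2 difference, GAS2DN minus Venus, of the eligible representative probe set of 1 gene, orange diamonds mark the median of each list with its number of genes in brackets, the dashed line is the median over all genes, 0.056, and dotted lines stand at 3-fold. The list medians lie between -0.10 and 0.27, and the points past the dotted lines are LSP1 among the neighbours and MIAT among the other long non-coding RNAs.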

How the data were processed

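Per the labels, total RNA was labelled with biotin using a 3′ IVT kit, and the authors deposited log2 signals made with MAS5, whose version, and the genome build, were not given in the sources used here. Signals were obtained as powers of 2 of the deposited log2 values. Of 54675 probe sets 41091 had 1 gene symbol in GEO's platform annotation, 1801 had several, 11721 had none and 62 were controls. Current symbols were looked up by gene identifier in RefSeq tables for 41037 of the single-gene probe sets, whether or not they changed. For the other 54 the annotated symbol was kept. A probe set was eligible when its brighter signal reached the median of its array. The representative probe set of a gene had the highest mean log2 signal, with _x_at left out where another existed. The 3-fold threshold is the one by which the study counted genes. The text names all members, list genes over 2-fold by their representative probe set, and eligible neighbours. Some further list genes, named by role, and some further probe sets of list genes were chosen after their values were seen. The members, lists and settings were chosen with earlier results of these data known. The number of arrays, 1 per condition, limits the precision, and no p-value was computed. Alternatives covered the filter, scaling (median centring, loess with a span of 0.2, quantile normalization), choice of probe set, low signals and threshold. Python 3.11.15, pandas 2.3.3 and statsmodels 0.14.6 were used, and the calculation was tested on simulated data.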

Additional observations from a re-analysis of the deposited data

How the results depend on the processing

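Of 96 alternative values for the members, 79 stayed within the spread or count limits used. Among these, the sign turned for MEG3, from -0.15 to 0.06 with the array median added, and for MALAT1, from -0.11 to 0.02 with the median over eligible probe sets. The 2 MEG3 probe sets over 3-fold higher became 5 member probe sets with no filter on dim signals, and 0 when both signals had to reach the median, when one had to reach percentile 75, with the array median added or with low signals raised to it. Counted as genes, the 1 became 2 with no filter and 0 under the same 4 settings. The count over 3-fold lower, 0, became 1 for probe sets and for genes with a 2-fold threshold (DLEU2). DLEU2 moved from -1.05 to -0.27 with the median over eligible probe sets and with the second-brightest one, MEG3 from -0.15 to 2.03 under both, and MALAT1 from -0.11 to 0.58 without _s_at and _x_at probe sets. With the shared probe sets counted, a setting added after the data were seen, 3 were over 3-fold higher and 0 lower. The median over the 4 members was -0.17 and ranged from -0.40 to -0.05. Of 157 values for the lists and the background share 143 moved by less than these limits. Among the rest, the median of nonsense-mediated decay factors moved from 0.06 to 0.43 with the second-brightest eligible probe set. That of protein-coding snoRNA hosts moved from 0.11 to -0.14 without _s_at and _x_at probe sets. The share of all probe sets over 3-fold higher ran from 0.0314% to 12.6%. No scaling moved the median of all genes by more than 0.1. No paired analysis was possible because each condition had 1 array, and for the same reason no replicate could be left out.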
